A study of Homo sapiens with 6 samples.

Results

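The 10 genes described here encode proteins that act on chromosomes in cell division: the 8 subunits of the 2 condensin complexes, DNA topoisomerase II alpha (TOP2A) and the proliferation marker MKI67. They were chosen by symbol from 58735 genes in a table of RNA-seq counts, and all 10 were found once each and passed the filter on low counts. The cells were MDA-MB-231, an established human line from a triple-negative breast cancer. Of 6 libraries, 3 are labelled Control and 3 are labelled PM2.5, the airborne particles with a diameter of up to 2.5 micrometres to which those cells were exposed. RNA was taken after 48 h of exposure. The labels state neither the particle dose nor what the control cultures received. The design text speaks of biological replicates without saying how separate the cultures were, so p-values measure the spread between these libraries.

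Total counts per library ran from 31846136 to 34691009. The 5 markers of this line (VIM, CD44, EGFR, KRT18 and AXL) summed to 4445 to 5104 CPM (counts scaled to library size, with TMM factors) in the libraries labelled Control and 5226 to 5561 CPM in those labelled PM2.5. VIM and CD44 make up most of that sum, while EGFR was called lower (log2 change -0.90) and KRT18 higher (0.84) under the PM2.5 label. ESR1, the oestrogen receptor, had a count of 0 in all 6. The leukocyte markers PTPRC and CD3E were also at 0, and the leukocyte markers CD14 and LYZ together came to 1.38 to 2.74 CPM against 4.23 to 5.66 CPM. The 5 endothelial and fibroblast markers, mostly PECAM1 and COL1A1, summed to 65.4 to 71.6 CPM against 79.0 to 81.4 CPM, and the 6 luminal markers, mostly ERBB2, to 67.1 to 78.6 CPM against 41.9 to 53.3 CPM. The part of these markers in the results was not tested. HMOX1, NQO1, CYP1A1 and CYP1B1, which particles are known to induce, went the other way: HMOX1 stood at 757 to 873 CPM under the Control label and 44.9 to 56.7 CPM under the PM2.5 label, and the other 3 were also called lower there. Every direction below follows the labels. Whether the labels were exchanged was not tested, and an exchange would turn every rise into a fall.

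Condensins are ring-shaped ATPases that fold DNA into loops and give mitotic chromosomes their compact shape. Both complexes share the ATPases SMC2 and SMC4. Each complex adds its own kleisin, which closes the ring (NCAPH in condensin I, NCAPH2 in condensin II), and its own pair of HEAT-repeat subunits (NCAPD2 and NCAPG, or NCAPD3 and NCAPG2). Condensin II is nuclear through interphase, whereas condensin I meets the chromosomes once the nuclear envelope breaks down. TOP2A passes one DNA duplex through another and so removes tangles between sister chromatids, and the MKI67 protein coats the surface of mitotic chromosomes and keeps them apart. MKI67 and TOP2A transcripts peak late in the cell cycle, and both are read as proliferation markers in breast tumours.

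Many genes that peak in G2 and mitosis carry a cell cycle gene homology region (CHR), a short promoter element bound by the MuvB complex, often near CCAAT boxes bound by NF-Y. Promoter windows, from 250 bases before to 50 bases after an annotated start, were taken from RefSeq (GRCh38.p14). They covered 9 of the 10 genes in 12 windows. NCAPH2 had no entry. The CHR forms TTTGAA and TTTAAA were searched on both strands, and 9 of 9 genes held at least 1 of them, in 9 of 12 windows. Among all 35116 windows the share was 24.0%. Counted by gene, it was 21.3% of 10466 tested genes with a window and 39.6% of the 460 that were called at least 2-fold higher in the libraries labelled PM2.5. A match is a description of the letters in the window and not a binding site.

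Below are the surroundings of the first match in 7 condensin genes. The hexamer is alike because it was searched for, and likeness of the bases around it was not tested. Annotated exons of any gene cover 29 of the 30 bases shown for NCAPH and every base of the other stretches. Each is written 5′ to 3′ along the gene's own strand with the hexamer in capitals, so that a match on the other strand reads TTCAAA.
SMC2, chr9:104094294-104094323, plus strand: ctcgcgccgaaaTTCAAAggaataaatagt
SMC4, chr3:160399563-160399592, plus strand: gccgcactttttTTCAAAttagtggatccc
NCAPD2, chr12:6493945-6493974, plus strand: cagccgttgagaTTTGAActcggtatttgt
NCAPG, chr4:17810932-17810961, plus strand: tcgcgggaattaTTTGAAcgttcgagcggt
NCAPH, chr2:96335786-96335815, plus strand: cgacgcgcgcgaTTTAAAaccagctcagga
NCAPD3, chr11:134223953-134223982, minus strand: gcgggagcgagcTTTGAAagttgagcacgg
NCAPG2, chr7:158704755-158704781, minus strand: ccggcgggtgcgTTTGAAtctggtccg
The first base of the hexamer lay 3 bases before an annotated start in SMC2 (position -3) and NCAPD3 (-3). It lay at -35 in NCAPG, at -75 in SMC4 and at -145 in NCAPD2. SMC2, SMC4 and NCAPD3 each have a further annotated start whose window held no CHR form. In NCAPD3 the match belongs to the start at 134223967, and the outer start at 134225461 had none. It lay after the start in NCAPH (33) and NCAPG2 (36). NCAPH was the only one of the 9 genes whose match was the form TTTAAA.

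MKI67 and TOP2A each held 2 copies of TTTGAA, and a stretch of 180 bases upstream of each start that no GENCODE exon covers is shown because it holds both copies. CHR forms and CCAAT boxes are in capitals, a CCAAT box on the other strand reading ATTGG.
MKI67, chr10:128126424-128126603, minus strand: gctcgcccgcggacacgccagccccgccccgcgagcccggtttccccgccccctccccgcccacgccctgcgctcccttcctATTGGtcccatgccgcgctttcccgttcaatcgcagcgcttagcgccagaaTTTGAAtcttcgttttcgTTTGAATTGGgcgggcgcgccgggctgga
TOP2A, chr17:40417951-40418130, minus strand: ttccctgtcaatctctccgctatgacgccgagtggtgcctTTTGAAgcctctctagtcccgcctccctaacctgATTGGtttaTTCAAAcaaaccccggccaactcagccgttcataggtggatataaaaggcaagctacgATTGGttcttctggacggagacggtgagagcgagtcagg
In MKI67 the copies began at -47 and -29, and the second shares a base with a CCAAT box on the other strand that begins at -24. In TOP2A they began at -194 and -151, and 4 CCAAT boxes lay in the window, 2 of them in the stretch shown. CCAAT boxes were found in 5 of the 9 genes (34.6% of all windows held one). NCAPD2 and TOP2A, with 4 each, belong to the 3.26% of windows with 3 or more. The GC-rich hexamers GGCGGG and GCGGGA, which E2F sites contain and which may overlap each other, were in 9 and 6 of the 9 genes and in 45.0% and 26.9% of all windows. For CCAAT boxes and these hexamers no share by gene was computed. Because a gene can have several windows, the counts of genes and the shares of windows are not like for like. The map of matches shows the CHR forms within 50 bases of an annotated start in 6 of the 9 genes, though for SMC2 and NCAPD3 not at both of their starts.

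**Figure D1:**
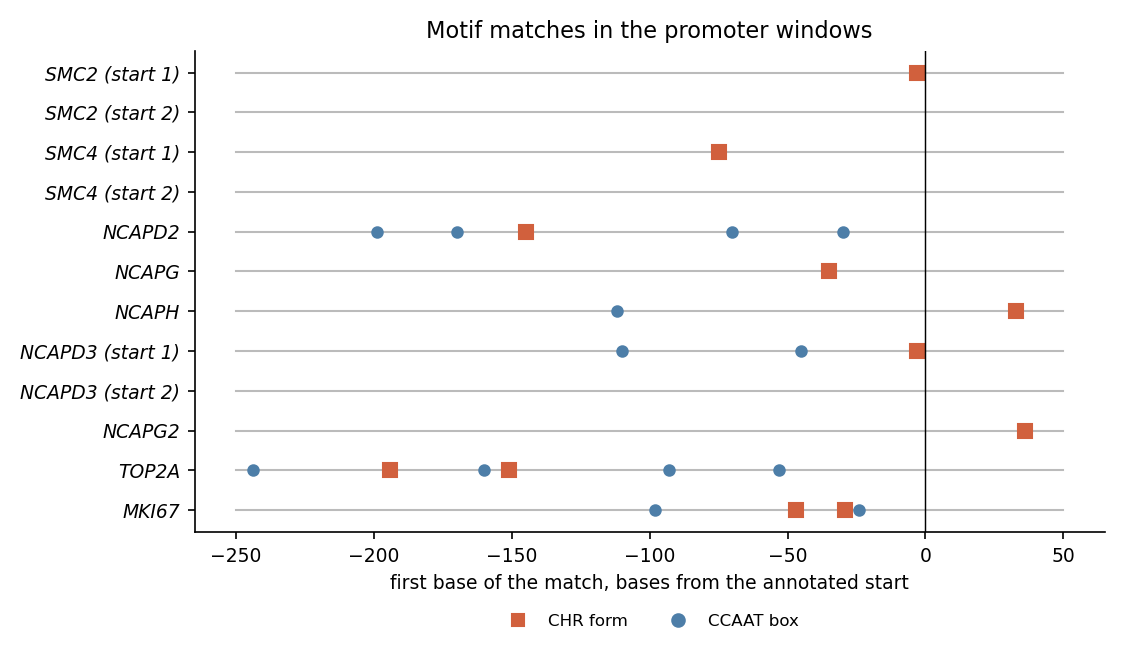
Matches to the CHR forms (squares) and the CCAAT box (circles) on either strand in the 12 RefSeq promoter windows of 9 genes, by distance in bases from the annotated start. MKI67 and TOP2A each hold 2 CHR forms, and NCAPD2 and TOP2A each hold 4 CCAAT boxes.

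Of the 10 genes 9 were called higher in the libraries labelled PM2.5 by edgeR's quasi-likelihood test at an adjusted p under 0.05, and 0 were lower. Among all 14975 genes tested 31.9% were called in either direction and 16.1% were called higher. A rise of at least 2-fold was called for 7 of the 10, against 4.91% of all tested genes. The median log2 fold change was 1.75 over the 10 genes and -0.00898 over all tested genes. The groups did not overlap for any of the 10, where 44.3% of all tested genes showed no overlap in either direction. Because the RNA is from whole cultures, a larger share of dividing cells and more RNA per cell cannot be told apart.

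MKI67 (GRCh38 chromosome 10, 128096659 to 128126385, minus strand, ENSG00000148773) stood at 26.2, 21.0 and 23.9 CPM in the libraries labelled Control (replicates 1, 2 and 3, an order kept below) and at 159.7, 171 and 144 CPM in those labelled PM2.5. Its 3 high libraries were all those labelled PM2.5, and the lowest of them lay far above the highest Control library. The log2 fold change was 2.74 ± 0.11 (SE, 3 libraries a group, edgeR adjusted p = 6.47e-11), the 6th smallest p of all tested genes.

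TOP2A (chromosome 17, 40388516 to 40417950, minus strand, ENSG00000131747) stood at 24.7, 22.5 and 23.0 CPM in the libraries labelled Control and at 186, 204 and 129.6 CPM in those labelled PM2.5. PM2.5 replicate 3 was the lowest of its group and still above every Control library. The rise of 2.89 ± 0.14 on the log2 scale (SE, 3 libraries a group, edgeR adjusted p = 4.95e-10) was the 29th largest of all tested genes and that of MKI67 the 39th. The MKI67 to TOP2A ratio per length overlapped between the groups.

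The shared ATPases differed in size of change. SMC2 (chromosome 9, 104094260 to 104141417, plus strand, ENSG00000136824) stood at 11.7, 12.6 and 12.2 CPM under the Control label and at 23.1, 25.5 and 16.8 CPM under the PM2.5 label. Its 3 Control libraries were close together and its PM2.5 libraries spread widely around a 1.80-fold higher level (log2 change 0.84 with an SE of 0.15, edgeR adjusted p = 4.69e-04). SMC4 (chromosome 3, 160399274 to 160434962, plus strand, ENSG00000113810) stood at 6.83, 8.30 and 7.37 CPM and at 25.6, 35.8 and 22.1 CPM. It rose 3.71-fold, with PM2.5 replicate 2 the highest (log2 change 1.89 with an SE of 0.17, edgeR adjusted p = 4.67e-07). Exons of other genes on the opposite strand cover 25.6% of the exonic bases of SMC4, and whether the counting used strand is not stated. The larger part of that overlap, 1561 bases, belongs to TRIM59, which rose by 1.60 on the log2 scale, so part of the reads of the pair cannot be told apart.

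All 3 subunits particular to condensin I rose by more than 3-fold. NCAPD2 (chromosome 12, 6493356 to 6531955, plus strand, ENSG00000010292), the most abundant of the 10 genes per length by group mean, stood at 65.7, 61.9 and 60.4 CPM and at 206, 204 and 223 CPM. Under the PM2.5 label it varied least of the 10 genes, with a coefficient of variation of 4.92%, and it had a log2 change of 1.75 (SE 0.09, edgeR adjusted p = 8.55e-10). NCAPG (chromosome 4, 17810902 to 17844862, plus strand, ENSG00000109805) stood at 2.74, 3.02 and 4.27 CPM and at 15.6, 19.5 and 11.8 CPM. It rose 4.65-fold, with a spread of 24.3% and 24.6% in the groups (coefficient of variation), and 33.1% of its exon sequence is shared with LCORL on the other strand. With the strand setting not stated, part of the reads of NCAPG and LCORL cannot be told apart. LCORL went from 12.7 to 18.0 CPM on average (edgeR adjusted p = 0.0176) and lost its call in 4 of 14 alternatives, among them that without Control replicate 1, PM2.5 replicate 1 or PM2.5 replicate 2 (log2 changes 0.40, 0.49 and 0.39). The log2 change of NCAPG was 2.22 with an SE of 0.21 (edgeR adjusted p = 8.14e-07). The kleisin NCAPH (chromosome 2, 96335787 to 96373845, plus strand, ENSG00000121152) stood at 4.08, 4.94 and 3.54 CPM and at 14.3, 12.4 and 15.4 CPM. It rose 3.35-fold (log2 change 1.75 with an SE of 0.17, edgeR adjusted p = 1.07e-06), and here PM2.5 replicate 3 was the highest of its group and not the lowest.

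The condensin II subunits had smaller log2 changes, with a median of 0.76 against 1.75 in condensin I. NCAPD3 (chromosome 11, 134150119 to 134225454, minus strand, ENSG00000151503) stood at 33.2, 37.0 and 42.6 CPM and at 62.2, 67.6 and 61.6 CPM, a log2 change of 0.76 (SE 0.11, edgeR adjusted p = 6.19e-05). NCAPG2 (chromosome 7, 158631311 to 158704829, minus strand, ENSG00000146918) stood at 28.1, 29.006 and 29.5 CPM and at 62.8, 67.9 and 56.4 CPM, a 2.16-fold rise with nearly equal Control libraries (edgeR adjusted p = 6.38e-07). The kleisin NCAPH2 (chromosome 22, 50508216 to 50523472, plus strand, ENSG00000025770) was the 1 gene of the 10 that was not called, at 16.2, 14.3 and 16.3 CPM and at 18.6, 16.6 and 19.6 CPM. Its log2 difference was 0.23 ± 0.13 (SE, edgeR adjusted p = 0.181). Once trends on GC content and length were removed, an alternative chosen after the data were seen, it was 0.29 with an adjusted p of 0.0347 and passed the threshold.

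**Figure D2:**
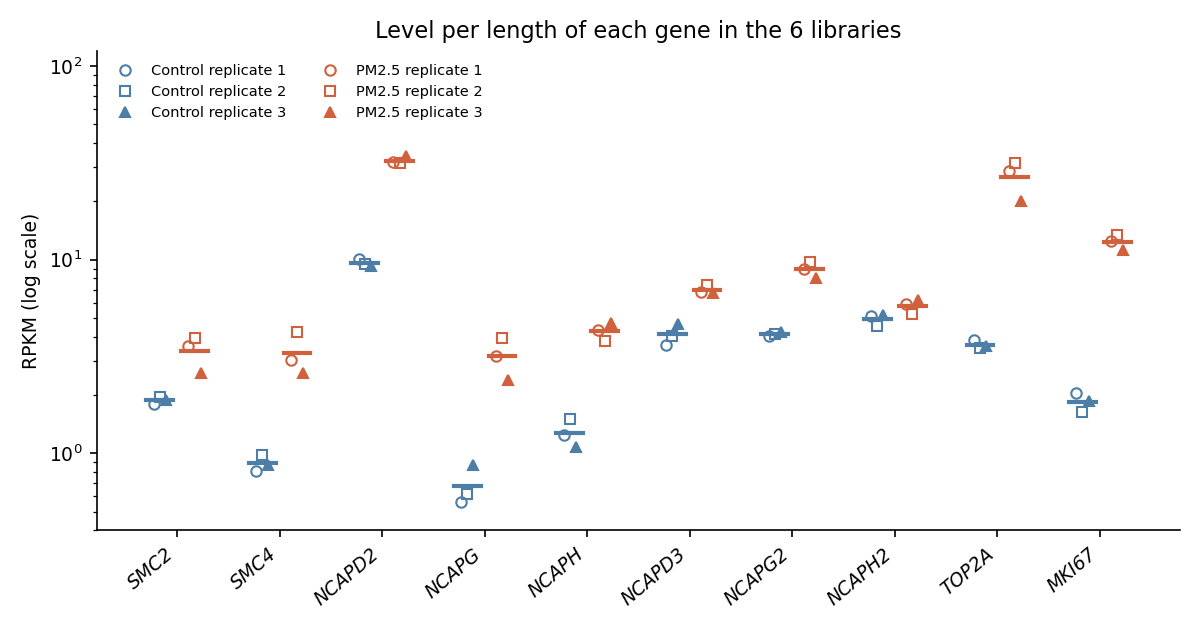
Level of each of the 10 genes in RPKM (log axis) in the 3 libraries labelled Control (blue) and the 3 labelled PM2.5 (orange), with a bar at the group mean. All genes lie higher under the PM2.5 label without overlap, by the smallest margin in NCAPH2, and PM2.5 replicate 3 is the lowest of its group in 7 of the 10, all but NCAPD2, NCAPH and NCAPH2.

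Compared per length, as RPKM (CPM per 1000 bases of merged exons), the order of the genes differed between the groups. In the libraries labelled Control, NCAPD2 led at 9.66 ± 0.42 RPKM (SD, n = 3), followed by NCAPH2 at 4.93 ± 0.36 and NCAPG2 at 4.13 ± 0.10. NCAPG2, NCAPD3 (4.12 ± 0.52) and TOP2A (3.64 ± 0.17) overlapped with their neighbours in the order, as did SMC2 (1.88 ± 0.07) with MKI67 (1.85 ± 0.20). NCAPH followed at 1.28 ± 0.21, and SMC4 (0.887 ± 0.088) and NCAPG (0.680 ± 0.165) came last and overlapped. In the libraries labelled PM2.5, NCAPD2 at 32.5 ± 1.60 RPKM overlapped with TOP2A at 26.9 ± 5.99 (SD, n = 3). MKI67 came next at 12.4 ± 1.07, ahead of NCAPG2 (8.93 ± 0.82), NCAPD3 (7.002 ± 0.36) and NCAPH2 (5.78 ± 0.48), each apart from the next. NCAPH (4.28 ± 0.47), SMC2 (3.37 ± 0.69), SMC4 (3.29 ± 0.85) and NCAPG (3.18 ± 0.78) overlapped in a run. NCAPH2 thus stood in position 2 of 10 under the Control label and in position 6 under the PM2.5 label.

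The balance between the complexes was compared as a ratio of paralogous subunits within each library, where library scaling cancels. The NCAPD2 to NCAPD3 ratio of RPKM was 2.78, 2.35 and 1.99 under the Control label and 4.65, 4.24 and 5.08 under the PM2.5 label. It was 1.97-fold higher under the PM2.5 label (log2 difference 0.98), and the groups did not overlap. NCAPG to NCAPG2 was 0.139, 0.148 and 0.206 and then 0.352, 0.407 and 0.297, a 2.16-fold difference. NCAPH to NCAPH2 was 0.243, 0.333 and 0.210 and then 0.740, 0.719 and 0.760, a 2.88-fold difference and the largest of the 3. NCAPG and NCAPH stayed below their condensin II counterparts per length in all 6 libraries, whereas NCAPD2 stayed above NCAPD3. Each of these 3 ratios had p = 0.1 by a two-sided exact permutation test, the smallest that 3 against 3 libraries allow, and 0.117 adjusted over the 7 such comparisons made here.

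Summed per length, the condensin I subunits went from 11.6 ± 0.34 to 39.99 ± 1.29 RPKM and the condensin II subunits from 13.2 ± 0.75 to 21.7 ± 0.68 RPKM (SD, n = 3 each). Condensin I held 48.3%, 47.8% and 44.5% of the summed RPKM of these 6 subunits in the libraries labelled Control and 64.4%, 63.6% and 66.4% in those labelled PM2.5 (exact permutation p = 0.1, the smallest possible). NCAPD2 supplied most of the condensin I sum in both groups. The ATPases also changed relative to each other: SMC4 to SMC2 was 0.448, 0.504 and 0.463 and then 0.845, 1.08 and 1.003, so that after a 2.06-fold difference both stood at about the same level per length (exact permutation p = 0.1). Of the 7 comparisons, this ratio, the condensin I share and the 2 ratios with TOP2A were added after the first 3 had been chosen.

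TOP2A was set against its paralog TOP2B, which is made throughout the cell cycle and in resting cells. TOP2B stood at 37.5, 39.5 and 44.9 CPM under the Control label and at 58.6, 64.0 and 41.7 CPM under the PM2.5 label, with overlapping groups. Its log2 change of 0.43 (SE 0.14, edgeR adjusted p = 0.0241) lost its call under 7 of 14 alternatives, including those without Control replicate 1 (0.37), Control replicate 2 (0.41), PM2.5 replicate 1 (0.39) or PM2.5 replicate 2 (0.30), and was 0.17 once trends on GC content and length were removed. The TOP2A to TOP2B ratio per length was 0.618, 0.536 and 0.482 in the libraries labelled Control and 2.97, 2.99 and 2.92 in those labelled PM2.5. The ratio was 5.46-fold higher under the PM2.5 label (exact permutation p = 0.1, the smallest possible), and its 3 PM2.5 values were close together although TOP2A alone varied widely there. MKI67 to TOP2A ran from 0.470 to 0.533 and from 0.423 to 0.558, and the log2 difference of -0.12 had p = 0.4 by the exact permutation test.

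**Figure D3:**
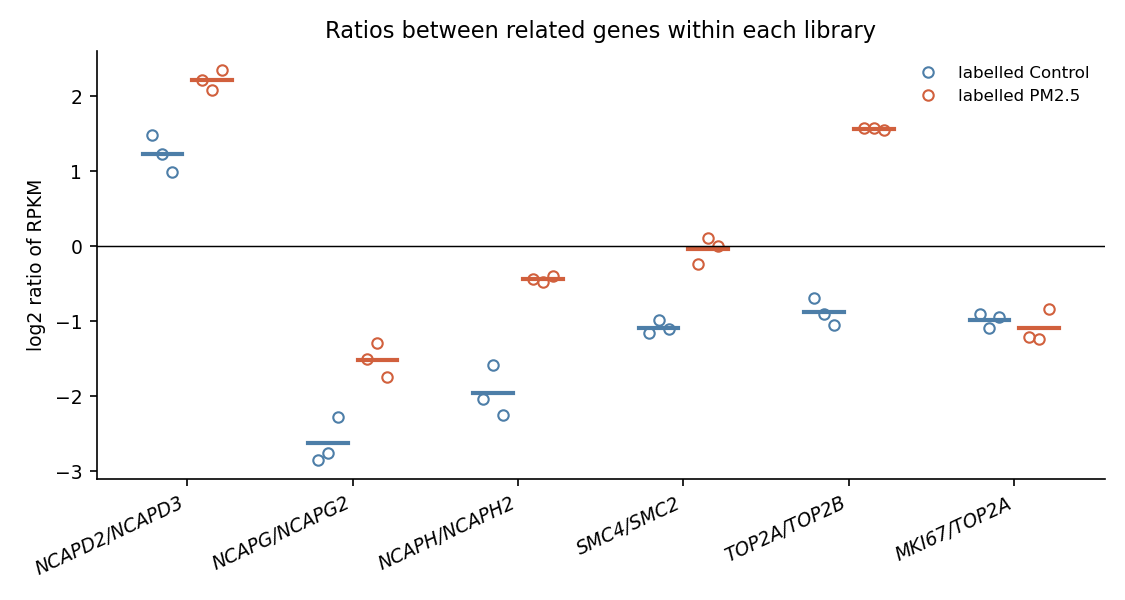
Log2 ratio of RPKM between 6 pairs of related genes in each library labelled Control (blue) or PM2.5 (orange), with a bar at the group mean. The groups are apart for the first 5 pairs and overlap for MKI67 to TOP2A, and the TOP2A to TOP2B values lie within 2.92 to 2.99 on the linear scale under the PM2.5 label.

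The position of PM2.5 replicate 3 within its group varied with the GC content of the genes. PM2.5 replicate 3 was lower than the mean of the other 2 by 0.58 on the log2 scale for TOP2A (log2 difference -0.58), and the differences were -0.56 for NCAPG, -0.53 for SMC2 and -0.45 for SMC4. These 4 genes have transcripts of 37.7% to 39.1% GC. It was higher for NCAPD2 (0.12, 52.5% GC), NCAPH (0.21, 48.6% GC) and NCAPH2 (0.15, 61.5% GC). Between them lay NCAPG2 (-0.21, 43.7% GC), MKI67 (-0.20, 48.0% GC) and NCAPD3 (-0.07, 49.4% GC), so that MKI67 and NCAPH differed in sign at nearly equal GC content. Over the 10 genes GC content and this difference had a Pearson r of 0.88, and over 14973 tested genes the r was 0.38. GC content and the log2 change of PM2.5 over Control had an r of -0.48 and -0.14 over the same genes. These are descriptions across genes of the same libraries, and genes are not independent replicates. The median difference of PM2.5 replicate 3 ran from -0.30 in the lowest 20% of tested genes by GC content to 0.14 in the highest. The median log2 change of PM2.5 over Control was 0.16 and -0.08 in the same classes.

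The calls were measured again after GC and length trends had been taken out. TOP2A then rose by 2.62 on the log2 scale, NCAPG by 1.99, SMC4 by 1.60 and SMC2 by 0.55, all still called. SMC2 moved most, from 0.84, and NCAPD2 (1.74) and NCAPH (1.78) hardly moved. Without PM2.5 replicate 3 the rises were larger in the AT-rich genes, at 3.05 for TOP2A and 0.999 for SMC2. Control replicate 3, which stands apart from the other Control libraries on the second principal component, was the highest Control library for NCAPG and the lowest for NCAPH. Without it NCAPG rose by 2.43 and NCAPH by 1.63.

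**Figure D4:**
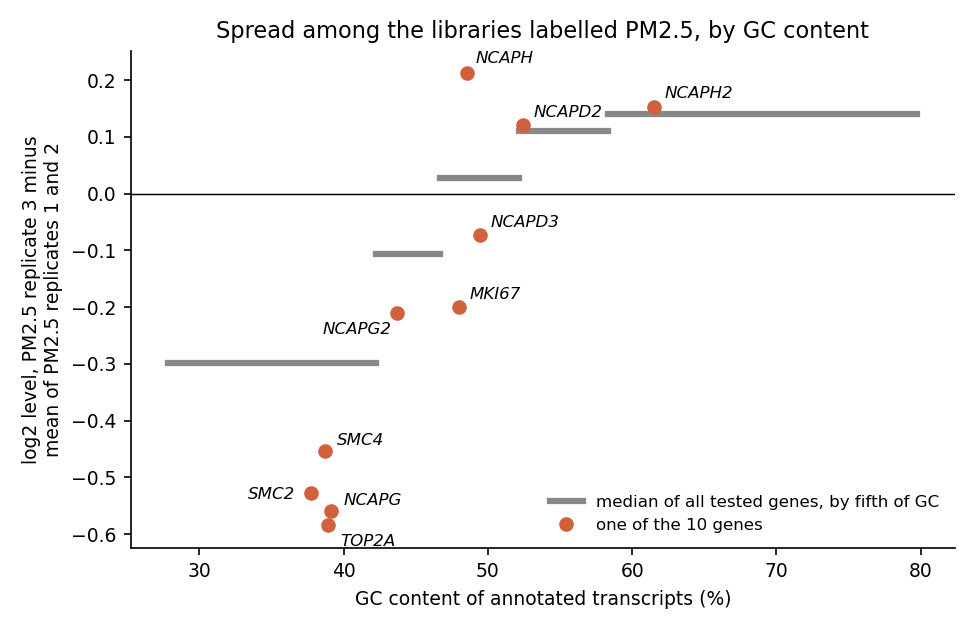
Log2 level in PM2.5 replicate 3 minus the mean of PM2.5 replicates 1 and 2, against the GC content of annotated transcripts, for the 10 genes (points) and as the median of all tested genes in each of 5 equal classes of GC content (grey bars spanning the class). TOP2A, NCAPG, SMC2 and SMC4 lie at -0.45 or below, under the grey bar of the lowest class at -0.30.

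A gene on the opposite strand starts within 1000 bases of 5 of the 10 genes. Distances are between the starts by the deposited gene coordinates, and some of the pairs overlap. For some genes these starts differ from the RefSeq starts of the promoter windows. NCAPD2 shares 486 exonic bases with MRPL51, SMC4 607 with IFT80 and NCAPD3 249 with VPS26B. Exons on the opposite strand cover 7.49% of the exonic bases of NCAPD2 and 8.89% of those of NCAPD3. The strand setting of the counting is not stated, so part of the reads of these pairs cannot be told apart. NCAPG starts 144 bases from DCAF16, an adaptor of an ubiquitin ligase. DCAF16 stood at 43.2, 45.2 and 46.0 CPM and at 37.3, 40.4 and 37.4 CPM (log2 difference -0.22 ± 0.10, SE, adjusted p = 0.0916 by edgeR), while NCAPG rose. NCAPD2 faces the mitochondrial ribosomal gene MRPL51 at 485 bases (log2 difference -0.18, adjusted p = 0.209 by edgeR) and NCAPH2 faces the lipase maturation gene LMF2 at 525 bases (0.17, adjusted p = 0.259 by edgeR). SMC4 faces the cilium gene IFT80 at 606 bases (0.43 ± 0.32, SE, adjusted p = 0.325 by edgeR), which was low at 1.36 and 1.85 CPM on average. NCAPD3 faces VPS26B, a part of the retromer sorting complex, at 809 bases, and VPS26B fell by 0.42 on the log2 scale (adjusted p = 0.00308 by edgeR) where NCAPD3 rose. Of the 5 neighbours 0 were called higher and 1 lower, no more than the 31.9% called among all tested genes, so their count shows nothing particular. DCAF16 was called lower once the GC and length trends were taken out, and MRPL51 was called lower without Control replicate 3.

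**Figure D5:**
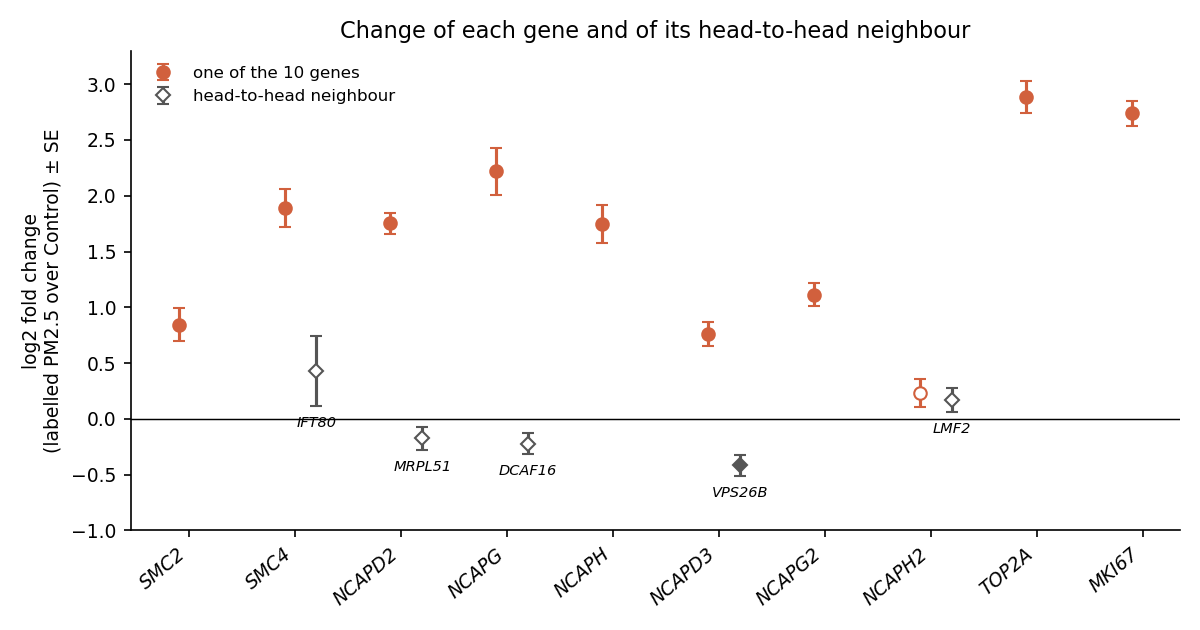
Log2 fold change ± SE (labelled PM2.5 over Control, n = 3 each) of the 10 genes (circles) and of the head-to-head neighbour where there is one (diamonds), filled where called at an adjusted p under 0.05. Of the 5 neighbours VPS26B alone is filled, at -0.42, while NCAPH2 is the open circle at 0.23.

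Genes around the condensin and topoisomerase pathways are given as lists chosen with earlier results of these data known. Of 19 mitotic kinases and condensin partners 15 rose and 0 fell, with a median log2 change of 1.76 (16.1% of all tested genes rose and 15.8% fell). CDK1, the kinase that phosphorylates condensin at mitotic entry, rose 6.13-fold from 20.0, 22.6 and 17.1 CPM to 133, 128 and 105 CPM. Its cyclins CCNA2 and CCNB1 rose 8.35-fold and 3.64-fold, and KIF4A, a chromokinesin that works with condensin I on the chromosome axis, rose 4.96-fold. MCPH1, which holds condensin II back in interphase, was not called (log2 difference -0.10 ± 0.15, SE). AKAP8, SET and CSNK2A1 were not called either.

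Other SMC complexes moved less as a list. Of 21 cohesin, SMC5 and SMC6 complex genes 7 rose, 3 fell and 11 were not called, with a median of 0.30. The falls are near the 15.8% of all tested genes. CDCA5 (sororin), which protects cohesion until mitosis, rose 3.80-fold, and the cohesin kleisin RAD21 rose 1.69-fold. The cohesin loader subunit MAU2 fell 1.53-fold from 61.8, 56.9 and 67.6 CPM to 41.5, 37.3 and 43.0 CPM. The cohesin ATPase SMC1A stood at 51.2 ± 7.82 and 51.3 ± 3.84 CPM (SD, n = 3 each) and was not called. The number that rose was 4, near the 16.1% of all tested genes, without Control replicate 1, Control replicate 2, PM2.5 replicate 1 or PM2.5 replicate 2. Of 6 tested topoisomerase and TDP genes other than TOP2A 2 rose and 2 fell, among the falls mitochondrial TOP1MT by 0.58 on the log2 scale, in a list too short to read against the 16.1% and 15.8% of all tested genes. The 2 rises, TOP2B and TDP1, both lost their calls without Control replicate 2 or PM2.5 replicate 1, and 1 rise was left without Control replicate 1 or PM2.5 replicate 2. The number that fell was 1 without Control replicate 2 or PM2.5 replicate 3.

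Of 14 genes for MKI67 partners and the chromosome periphery 5 rose, 2 fell and 7 were not called. Of all tested genes 16.1% rose and 15.8% fell, and the falls are near that share. The kinesin KIF15, which binds MKI67, rose 4.56-fold and the phosphatase anchor CDCA2 rose 3.41-fold. NIFK, which binds the FHA domain of MKI67, stood at 16.2 ± 2.59 and 15.1 ± 0.15 CPM, and the nucleolar proteins NPM1 and NCL were also not called. Here 3 rose without Control replicate 1, Control replicate 2 or PM2.5 replicate 2, and 1 fell without Control replicate 1, Control replicate 2, PM2.5 replicate 1 or PM2.5 replicate 2. With size factors of DESeq2 or total counts in place of TMM 1 fell as well.

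Among 21 tested cell cycle transcription factors 6 rose and 1 fell, with a median of 0.30. The 7 called are about the 31.9% called among all tested genes. MYBL2 and FOXM1, the partners of MuvB at CHR promoters, rose 3.89-fold and 3.21-fold, and E2F1 rose 1.58-fold. E2F8 was called higher from 0.113 to 1.41 CPM on average, close to the limit of counting in the libraries labelled Control. The MuvB core genes LIN9, LIN37, LIN52, LIN54 and RBBP4 were not called. Of the NF-Y genes NFYA rose by 0.37 on the log2 scale, NFYC fell by 0.50 and NFYB was not called (0.43 ± 0.16, SE). Without PM2.5 replicate 3 the list had 10 rises, and without Control replicate 3 it had 2 falls.

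All 12 breast tumour proliferation genes other than MKI67 rose, with a median of 1.96, close to the 1.75 of the 10 genes here. Of 16 S phase markers 9 rose and 0 fell, with a median of 0.46. Beside both lists, 16.1% of all tested genes rose and 15.8% fell. PCNA (log2 difference 0.23 ± 0.11, SE) and MCM2 (0.13 ± 0.13), both common proliferation stains, were not called, and neither were MCM3, MCM4, MCM5, MCM6 and CCNE1. The number of S phase markers that rose was 12 once the GC and length trends were removed. It was 10 with total counts or without Control replicate 3, and 7 without Control replicate 1 or PM2.5 replicate 1. The largest rise was that of RRM2, a subunit of ribonucleotide reductase, at 2.48 on the log2 scale. The thymidylate synthase gene TYMS followed (1.67), then CDC6 (1.39), CCNE2 (1.30) and MCM7 (0.97). CCNE2 was low, at 0.526 CPM under the Control label and 1.30 CPM under the PM2.5 label on average. RRM2 and TYMS belong to the proliferation list too, which also shares BIRC5, CCNB1 and AURKA with the mitotic kinase list and MYBL2 with the transcription factors.

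The 5 protein-coding genes most like MKI67 over the 6 libraries (Pearson r of log2 CPM) were CIT, a kinase of cytokinesis, CCNA2, PIAS2, CHRNB1 and NEDD4L, with r of 0.998 to 0.999. Most like TOP2A were ANLN, a scaffold of the cleavage furrow, KIF14, NUF2, DEPDC1 and NDC80, with r of 0.999 in each. The 6 points fall into the 2 groups, and 1374 of 12652 protein-coding genes had an r over 0.9 with MKI67. The genes like MKI67 included small changes, against 2.74 on the log2 scale for MKI67. PIAS2 rose by 0.58, a call lost under 3 of 14 alternatives. CHRNB1 rose by 0.45, a call lost without PM2.5 replicate 1 (0.44), and NEDD4L by 0.56. For TOP2A all 5 rose by over 4-fold, from 2.05 for DEPDC1 to 2.92 for ANLN on the log2 scale.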

How the data were processed

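Gene expression was measured by RNA-seq in 6 libraries of MDA-MB-231 cells. What the authors deposited is a single table of unnormalized counts by gene, per the file headers, with symbols, coordinates and lengths. Per the submitters' processing notes the genome was GRCh38. For aligner, counter and strand setting the sources used here give nothing. The 58735 identifiers all matched GENCODE release 29 by coordinates, and the table's lengths equal merged exons for the 10 genes.

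Counts were analysed with edgeR 4.0.16 in R 4.3.3. The function filterByExpr (minimum count 10, minimum total 15) kept 14975 genes, libraries were scaled by TMM, and groups were compared with the quasi-likelihood test, two-sided, at a Benjamini-Hochberg adjusted p of 0.05 (all tested genes). An SE is the absolute log2 change over the root of the F statistic. CPM use TMM factors, and RPKM divide them by the length in units of 1000 bases. Libraries of one group differed by more than sampling noise (chi-square per degree of freedom 5.74 to 36.3), so each library was kept. A count of 0 allows up to 0.0865 to 0.0942 CPM (3 counts), for counting error only. The fit was also run on simulated counts that held no GC trends, so that run does not vouch for the calls made here.

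The members and lists were chosen with earlier results of these data known. The rule for named genes took all 10 members, TOP2B, up to 4 called genes per list and direction, head-to-head and overlapping neighbours, and the 5 genes most like MKI67 and TOP2A. Genes named as not called, and KIF4A, NFYA, CCNE2 and MCPH1, were chosen after their values were seen. The alternatives were DESeq2 1.42.0 and its size factors, total counts, limma-voom (3.58.1), no filter and a stricter filter on low counts, each library left out, a replicate block and, added after seeing the data, a correction for GC content and length trends. A marker gene of the lists is not reported here.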

Additional observations from a re-analysis of the deposited data

How the results depend on the processing

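Of the 10 genes 9 were called higher under each alternative listed in the methods but 1: with the GC and length trends taken out all 10 were called, NCAPH2 at 0.29 (edgeR adjusted p = 0.0347). Over the 14 alternatives and 10 genes, 139 results kept their direction and their side of the threshold, 1 newly passed it and 0 reversed. SMC2 ranged from 0.55 with those trends removed to 0.999 without PM2.5 replicate 3, and NCAPH2 from 0.17 without Control replicate 2 to 0.29 without PM2.5 replicate 2. With each library left out in turn, the number of genes called over the whole table ran from 3245 to 5280, of those higher from 1797 to 2600 and of those lower from 1448 (without PM2.5 replicate 1, against 2365) to 2680. The called genes of the fixed lists numbered 47 to 63 against 58. The log2 differences of the ratios ran from 0.86 to 1.10 for NCAPD2 to NCAPD3, 1.0006 to 1.28 for NCAPG to NCAPG2 and 1.38 to 1.71 for NCAPH to NCAPH2.

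Same-numbered libraries did not deviate together (correlations -0.00158, -0.0508 and -0.122), so the replicate block rests on a shared number alone. With the replicate block 3777 genes were called against 4775, and 9 of the 10 genes were called higher. For the NCAPD2 to NCAPD3 ratio the replicate block gave 0.98, for NCAPG to NCAPG2 1.11 and for NCAPH to NCAPH2 1.52, each with p = 0.25 by the exact permutation within numbers, the smallest possible. Small calls among other named genes were less stable: PES1 lost its call under 9 of 14 alternatives, TOP2B and NSMCE3 under 7 each, CBX3 under 5, LCORL under 4 and PIAS2 under 3.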

Other observations

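Named pseudogenes of the 10 genes took almost no counts. NCAPD2P1, NCAPGP1 and SMC4P1 had 0 counts in all 6 libraries, MKI67P1 had 6 counts in PM2.5 replicate 2 alone and NCAPGP2 had 2 in PM2.5 replicate 3 alone. The microRNA genes MIR15B and MIR16-2, which lie within SMC4, had 0 counts in all 6 libraries.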
